A study of Eriocheir sinensis with 6 samples.

Results

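The genes described here are the 150 annotated genes of *Eriocheir sinensis*, the Chinese mitten crab, that held the most accessible chromatin regions inside their bodies in molt-period muscle. They were chosen from 19833 eligible genes, which are the annotated genes with a span of at most 50000 bp, out of 21314 annotated genes and 28671 genes in the expression table. For the choice, the peak intervals of the 3 ATAC-seq libraries were merged, the merged regions touched by a peak in all 3 libraries were kept, and the kept regions that lay wholly inside a gene and over 2 kb from its start were counted. The genes were then ranked by that count, ties going to the shorter gene. The number and the position of the peaks therefore chose the genes, and these values are given as a description only. Expression was not used in the choice.

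Walking-leg muscle was taken from 3 young males that were in period E, the molt period, and the tissue of each crab was divided between 1 ATAC-seq and 1 RNA-seq library, named Mu_E_1, Mu_E_2 and Mu_E_3. All crabs were untreated, carried the wild-type genotype and were in the same period, so there is no second condition and no control group. ATAC-seq marks accessible chromatin as places where a transposase inserts adapters into DNA, and a peak is an interval with more such fragments than its surroundings. RNA-seq expression is given as FPKM, a count of fragments that the authors scaled to gene length and to a divisor for each library. Each library comes from a whole piece of muscle tissue, so fewer cells of a type and less RNA per cell cannot be told apart. The gene table pairs no identifier with a gene name or product, so roles of the genes are not given and the labelled tissue was not checked against muscle markers. All identifiers begin with evm.TU. in the table, and this prefix is left out here.

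In animal genomes, accessible stretches inside genes can hold enhancers, alternative promoters and other binding sites of regulatory proteins. Chromatin over strongly transcribed genes is often open along the gene body as well as at the start. An ATAC-seq peak shows that DNA could be reached by the transposase, and it does not show which protein was bound there or which gene the region acts on.

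Fragments counted in listed genes, recovered from FPKM and gene length, numbered 7088747 to 7788537 per RNA-seq library. These are a part of the mapped reads that the study reports. The ATAC-seq libraries held 44610 to 52473 peaks. Merging gave 68059 regions, of which 29787 were touched by peaks of all 3 libraries. Mu_E_2 had the fewest peaks and, in the study's report, the fewest mapped ATAC-seq reads. A kept region needed a peak in this library too. The authors' FPKM did not use each library's own recovered fragments as its divisor, which was about 4063620 for Mu_E_1, 3868360 for Mu_E_2 and 11153100 for Mu_E_3. Relative to each library's own fragments, this scale lowered the levels of Mu_E_3 and raised those of Mu_E_1 and Mu_E_2. Levels on each library's own fragments are given beside the authors' FPKM where the order of the libraries is described. The 10 genes with the most fragments took 33.6%, 32.5% and 17.8% of the fragments of Mu_E_1, Mu_E_2 and Mu_E_3.

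The 150 genes together held 771 counted regions, of which 768 were distinct and 3 lay in 2 overlapping members. The other 19683 eligible genes together held 1918. Of all eligible genes, 18255 had no counted region and 1578 had at least 1. Among the members, 18 held 3 regions, 48 held 4, 37 held 5, 18 held 6, 12 held 7, 9 held 8, 5 held 9, 2 held 10 and 1 held 11. Every eligible gene with 4 or more counted regions is a member. At 3 regions the rule cut through a tie of 112 genes, from which it took the 18 shortest and left 94. The last genes inside the limit were CM024112.1.298, with 3 regions over 11846 bp, and CM024132.1.374, with 3 over 13126 bp. The first genes outside it were CM024142.1.196, with 3 regions over 13382 bp, and JACDRO010000633.1.1, with 3 over 13668 bp.

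The working description of these genes as compact did not hold in the data. Their spans ran from 6267 to 49837 bp with a median of 33693.5 bp, against a median of 6295 bp in the other eligible genes. Of the 150, 122 spanned over 20000 bp and 90 spanned over 30000 bp, so most were among the long genes that the limit of 50000 bp still admitted. A longer body can hold more regions, and the count was not divided by length. Per 10 kb of span, the members held a median of 1.69 counted regions, with a range of 0.806 to 4.81. Counted regions covered a median of 10.2% of a member's body, from 4.07% to 29.6%. The gene length on which FPKM was computed had a median of 1416.5 bp in the members, 1041 bp in all other eligible genes and 1575 bp in those within the members' range of spans. It was under 1000 bp in 53 members and made up a median of 5.17% of a member's span. They are called here the genes with the most gene-body regions.

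The gene with the most counted regions was CM024134.1.338, on the minus strand of sequence CM024134.1 from position 13917648 to 13963390. It held 11 counted regions, the first centred 2545 bp and the last 43483.5 bp from the start. Its strongest region, CM024134.1:13952967-13953674, had a fold enrichment over the local background of 7.01 in Mu_E_1, 8.85 in Mu_E_2 and 7.02 in Mu_E_3. The gene was expressed in every RNA-seq library, at 601, 794 and 444 FPKM in Mu_E_1, Mu_E_2 and Mu_E_3. The library values lay within 1.79-fold of each other. On each library's own fragments the same levels were 344, 408 and 636, and the order of the libraries changed.

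A pair of genes held 10 counted regions each. CM024135.1.299_CM024135.1.300, which the table joins from neighbouring models, lies on the plus strand of CM024135.1 at 12367335 to 12407129 and overlaps another listed gene. Its FPKM was 762 in Mu_E_1 and 887 in Mu_E_2, with 52.7 in Mu_E_3. The first 2 libraries were close and the third was far lower, also on own fragments, with 437, 456 and 75.4. The other, CM024119.1.538, lies on the minus strand of CM024119.1 at 20514281 to 20559664 and also overlaps another listed gene. It was at 750, 661 and 150 FPKM, again lowest in Mu_E_3, and at 430, 340 and 214 on own fragments. Whether the counting used strand is not given in the sources used here, so reads of overlapping genes may be mixed.

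**Figure D1:**
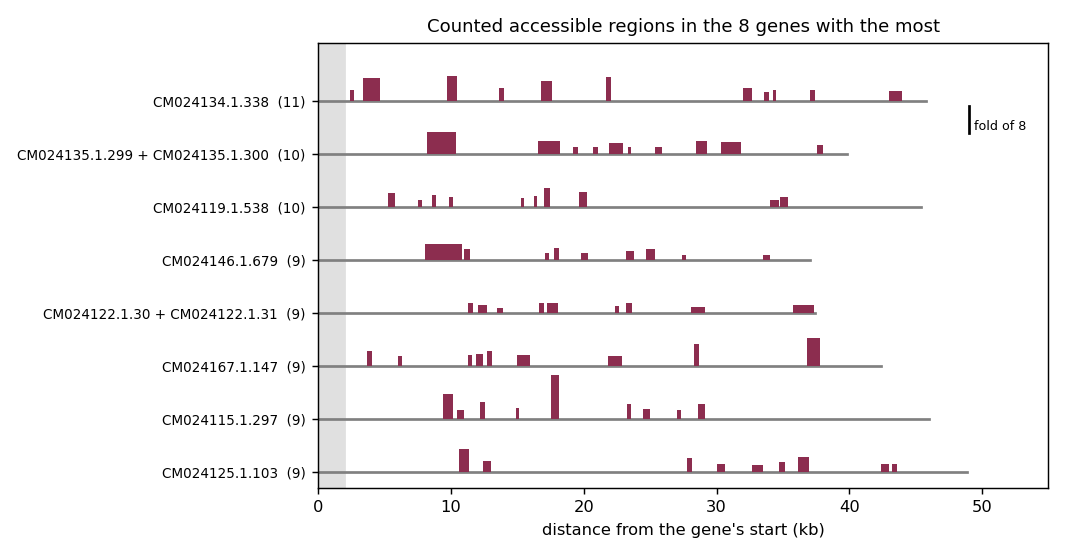
Map of the 8 genes with the most counted regions, which have 9 to 11 each. The horizontal axis is the distance from the gene's start in kb, the grey line is the gene span, the grey band is the stretch of 2 kb left out of the count, and each bar is a counted region drawn at its width with a height that gives its mean fold enrichment over the 3 ATAC-seq libraries (scale bar, fold of 8). Regions are spread over the bodies, and the tallest bar of the 8 genes is in CM024115.1.297.

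There were 5 genes with 9 counted regions, and they differed widely in expression. CM024167.1.147, on the plus strand of CM024167.1 at 4742331 to 4784686, reached 13038 FPKM in Mu_E_1, 14281 in Mu_E_2 and 1641 in Mu_E_3. CM024122.1.30_CM024122.1.31, another joined model, on the plus strand of CM024122.1 at 1058682 to 1096091, was at 1204, 2238 and 315 FPKM. CM024146.1.679, on the minus strand of CM024146.1 at 22840962 to 22878004, was at 750, 2233 and 598 FPKM. On the authors' scale all 3 were lowest in Mu_E_3 and highest in Mu_E_2. On own fragments this order was found only for CM024122.1.30_CM024122.1.31, at 690, 1151 and 452, while CM024167.1.147 was highest in Mu_E_1, at 7474, 7342 and 2349, and CM024146.1.679 was lowest there, at 430, 1148 and 856. The counted region nearest the start of CM024146.1.679, CM024146.1:22867168-22869941, was 2774 bp wide, the widest of all 768 distinct regions in members. The narrowest was 211 bp wide.

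The fourth gene with 9 regions, CM024125.1.103, is the only member that the main text of the study names by identifier. The study names it in its comparison of the post-molt with the inter-molt period, which are not the period sampled here. There it is placed within G protein-coupled receptor signaling, the pathway in which membrane receptors pass signals to G proteins inside the cell. The study also states that the gene's annotation gives it no receptor activity of that kind. It lies on the minus strand of CM024125.1 at 3416162 to 3465013, with counted regions centred from 10992.5 to 43367 bp from its start. Its FPKM was 359 in Mu_E_1 and 454 in Mu_E_2, with 98.1 in Mu_E_3, which gives a mean of 304 ± 184 (SD, n = 3). On own fragments the libraries lay closer together, at 206, 233 and 141. The fifth, CM024115.1.297, had the opposite order of libraries and is described with the genes of unequal expression.

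RNA levels of the members were higher than those of the other eligible genes in every library. Their median FPKM was 33.8 in Mu_E_1 and 29.8 in Mu_E_2, with 16.2 in Mu_E_3, against 0.933, 0.760 and 0.900 in the other eligible genes. On a log2(FPKM + 1) scale, the members' median exceeded that of the others by 4.17 in Mu_E_1, by 4.13 in Mu_E_2 and by 3.18 in Mu_E_3, giving a mean of 3.83 ± 0.56 (SD, n = 3). A mean difference of this size corresponds to 14.2-fold on that scale, which understates the change of low genes. It was of the same direction in all 3 libraries and exceeded their spread. No p is given, because the genes were chosen with earlier results of these data known, and libraries rather than genes are the replicates. Against the 9868 other eligible genes within the members' range of spans, the mean difference was 3.51 ± 0.57. On each library's own fragments it was 3.56 ± 0.16. With only the genes of at least 1 FPKM in every library in both sets, it was 2.21 ± 0.60.

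**Figure D2:**
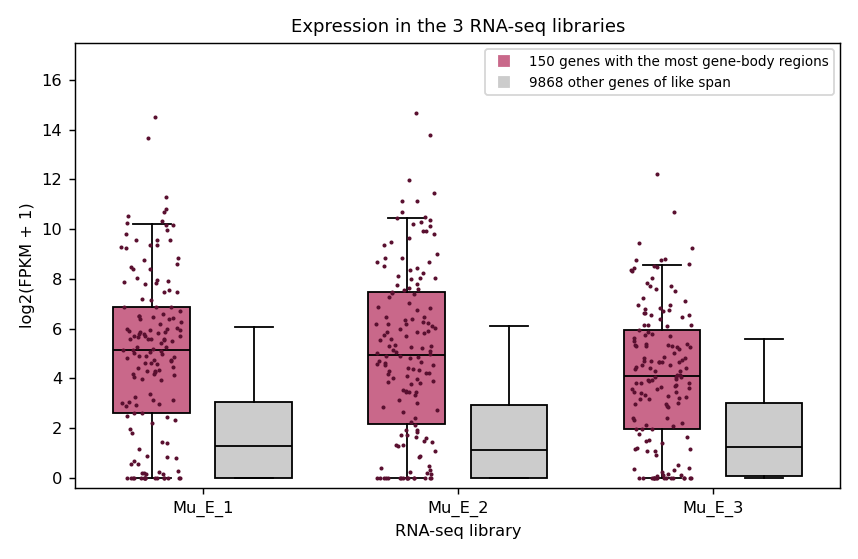
Expression on the log2(FPKM + 1) scale in each of the 3 RNA-seq libraries, for the 150 genes with the most gene-body regions (red, with every gene as a point) and 9868 other eligible genes within the members' range of spans (grey, no points). Boxes run from the lower to the upper quartile with the median as a line, and whiskers run from the 5th to the 95th percentile. The medians of the members, 5.12, 4.94 and 4.11, lie above the upper quartiles of the other genes, 3.06, 2.93 and 2.995.

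An expression of at least 1 FPKM in all 3 libraries was reached by 117 of the 150 members, or 78%, while the share of all eligible genes was 40.3%. The level of 10 FPKM in all 3 libraries was reached by 87 members, or 58%, against 13.4% of all eligible genes. At 100 FPKM the members numbered 26, or 17.3%, against 2.25%. Among other eligible genes within the members' range of spans, the shares were 45.4%, 14.3% and 2.13% at the 3 levels. Conversely, 12 members, or 8%, were listed at 0 in all 3 libraries, against 24.8% of all eligible genes. The share at 0 was 17.1% among other eligible genes within the members' range of spans. Single members thus ran from no recovered fragment in any library to 25934 FPKM in Mu_E_2.

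The difference varied with span. In the 6 members of up to 10 kb the difference of medians from other genes of that length was −0.36 ± 0.35, and only 1 of the 6 reached 1 FPKM in every library. It was 1.68 ± 0.22 for the 22 members over 10 and up to 20 kb, 3.58 ± 0.67 for the 32 of the next 10 kb, 4.55 ± 0.52 for the 42 over 30 and up to 40 kb, and 3.73 ± 0.45 for the 48 longest. So the high expression was found in the members over 10 kb and not in the shortest. The tie rule admitted genes with 3 regions only if they were short. Among the shortest members, span and a low number of regions therefore cannot be told apart. The 18 members with 3 regions, which the tie rule took for their short spans, had median FPKM of 3.30, 2.23 and 2.01, lower than the 94 longer genes with 3 regions left outside the list. On the log2(FPKM + 1) scale that difference was −1.55 ± 0.12.

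Over all eligible genes, expression was higher in each class with more counted regions. In Mu_E_1 the median FPKM was 0.824 for the 18255 genes with no counted region, 3.12 for the 1032 genes with 1, 6.74 for the 302 genes with 2, 8.61 for the 112 genes with 3, 25.8 for the 48 with 4, 29.1 for the 37 with 5 and 62.1 for the 47 with 6 or more. In Mu_E_2 it went from 0.665 to 58.4 over the same classes, and in Mu_E_3 from 0.808 to 39.9. Each class had a higher median than the class before it in all 3 libraries. Within the members, the 29 genes with 7 or more regions had median FPKM of 104, 199 and 93.3, and 27 of them reached 1 FPKM in every library. Across the 150 members, Spearman's rho between the number of regions and FPKM was 0.40 in Mu_E_1 and 0.36 in Mu_E_2, with 0.36 in Mu_E_3. With regions per 10 kb of span in place of their number, rho was −0.10, −0.08 and −0.08. The members were chosen by the number of regions, which restricts both sets of values. Over the 1578 eligible genes with at least 1 counted region, rho with FPKM was 0.23, 0.23 and 0.21 for the number of regions. For regions per 10 kb it was 0.09, 0.10 and 0.08 in the same genes. These are correlations across genes that share the same libraries, and genes are not independent replicates.

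**Figure D3:**
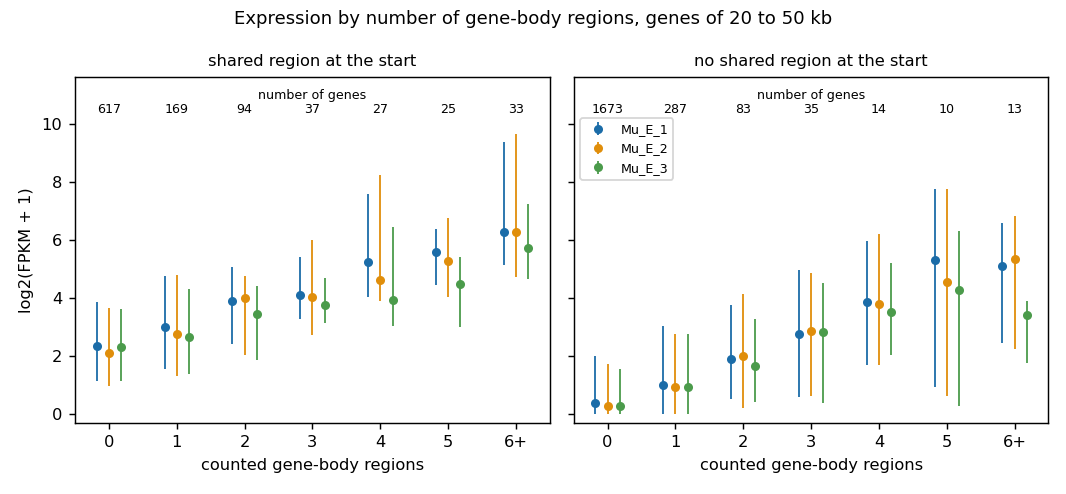
Median expression on the log2(FPKM + 1) scale (points) with the lower and upper quartiles (lines) by the number of counted gene-body regions, for eligible genes of at least 20 kb with (left) and without (right) a shared region at the start, in each RNA-seq library (colours). Numbers above give the genes in each class. On the left, the Mu_E_1 median goes from 2.36 with no counted region to 6.26 with 6 or more, and on the right from 0.40 to 5.08. The rise on the right does not hold throughout. From 5 regions (10 genes) to 6 or more (13 genes), the median falls from 5.29 to 5.08 in Mu_E_1 and from 4.26 to 3.40 in Mu_E_3. In Mu_E_2 it rises from 4.55 to 5.35.

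Regions within 2 kb of a gene's start were left out of the count but come from the same ATAC-seq libraries. A shared region touched this stretch around the start in 101 of the 150 members, or 67.3%, against 28.0% of all eligible genes and 32.7% of other eligible genes within the members' range of spans. At least 1 FPKM in every library was reached by 87 of the 101 members with such a region and by 30 of the 49 without one. The expression difference was present in both kinds of gene. With a start region in both sets it was 2.85 ± 0.59 on the log2(FPKM + 1) scale (101 members and 5446 other genes). Without one in both sets it was 2.70 ± 0.09 (49 members and 14237 other genes). CM024108.1.207, on the minus strand of CM024108.1 at 8115459 to 8147956, illustrates the second kind. It had 8 counted regions and no shared region at its start, and its FPKM was 2528 in Mu_E_1 and 4028 in Mu_E_2, with 346 in Mu_E_3.

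The most highly expressed members carried much of the members' RNA. CM024119.1.475, on the minus strand of CM024119.1 at 18006711 to 18034304, had 5 counted regions and was at 23243, 25934 and 4812 FPKM in Mu_E_1, Mu_E_2 and Mu_E_3. This single gene took 29.3%, 27.2% and 22.5% of the members' fragments. It was lowest in Mu_E_3 on both scales, with 13324, 13333 and 6891 on own fragments. CM024134.1.395, on the plus strand of CM024134.1 at 18195313 to 18242095, had 8 counted regions within all 3 libraries and 20 merged regions of any library, the most of any member. It was at 1146, 2835 and 699 FPKM, lowest in Mu_E_3, and at 657, 1457 and 1001 on own fragments, lowest in Mu_E_1. All 150 members together took 6.34% of the fragments of Mu_E_1 (95% Wilson interval 6.32 to 6.35), 6.81% of Mu_E_2 (6.80 to 6.83) and 4.26% of Mu_E_3 (4.25 to 4.27), while they were 0.523% of the listed genes. These intervals cover counting error only. The 10 highest members accounted for 77.1%, 74.9% and 61.8% of the members' fragments.

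Of the 12 members listed at 0 in every library, those with the most counted regions were CM024131.1.189, CM024130.1.121 and JACDRO010001520.1.1, with 5 each. CM024131.1.189, on the minus strand of CM024131.1 at 5919665 to 5942967, had a shared region at its start and overlaps another listed gene. A count of 0 allows up to 3 fragments, which would be 0.646 FPKM for this gene in Mu_E_1. For CM024130.1.121 that limit was 1.04 FPKM and for JACDRO010001520.1.1 it was 0.360 FPKM, and neither had a shared region at its start. Several regions in the body were thus also found in genes listed at 0 in every library. Per the study's methods, reads of low mapping quality or aligned to several places were not counted. The part of this in the listings of 0 was not tested. The 5 regions of CM024131.1.189 had mean fold enrichments between 2.70 and 4.17.

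Members were placed unequally between assembled chromosomes and other sequences. Outside the 72 numbered chromosomes lay 17 members, or 11.3%, against 3.42% of all eligible genes. The 133 members on chromosomes had median FPKM of 45.3, 37.5 and 21.0, and 114 of them reached 1 FPKM in every library. The 17 members on other sequences had medians of 0.148, 0 and 0, and only 3 of them reached 1 FPKM in every library. Other eligible genes outside the chromosomes were also low, with medians of 0 in all 3 libraries (n = 662). On the chromosomes alone the expression difference was 4.12 ± 0.58.

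The shortest and densest members were among those with little RNA. JACDRO010001144.1.1, of 8317 bp, had the highest density at 4.81 counted regions per 10 kb, with 4 regions that lie between positions 23390 and 28079 of its sequence, and it was listed at 0 in every library. CM024100.1.583, the shortest member at 6267 bp, had 3 regions and was listed at 0 in Mu_E_1, 1.48 FPKM in Mu_E_2 and 2.88 FPKM in Mu_E_3, which rest on 0, 5 and 28 fragments. CM024114.1.40, of 7883 bp on CM024114.1, had 3 regions and was listed at 0 in every library. It overlaps the member CM024114.1.41, named here because the pair is the only overlapping one and chosen after its values were seen. In all, 4 pairs of members overlapped or lay within 50 kb of each other, and otherwise the members were scattered over 71 sequences, 57 of them numbered chromosomes. The most on 1 sequence were 9 of 561 eligible genes on CM024135.1 and 8 of 359 on CM024118.1. Strands were nearly even, with 71 members on the plus and 79 on the minus strand.

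Few counted regions lay at the start of another gene. Of the 771 counted regions of members, 12, or 1.56%, lay within 2 kb of the start of another listed gene. This share was 4.17% over the counted regions of all eligible genes and 5.21% over those of the other eligible genes (100 of 1918). A total of 13 members overlapped another listed gene, 4 of them on the same strand, and 137 overlapped none. Joined models were 5 of the 150 members, or 3.33%, against 0.807% of all eligible genes. Without the 13 overlapping members the expression difference was 3.95 ± 0.52.

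Along the gene, counted regions lay mostly in the middle of the body. Of the 771 regions, 139 had their middle in the first of 4 equal parts of the span, 251 in the next, 225 in the third and 156 in the last. The first part, with 18.0%, includes the 2 kb that the rule left out. The shares of the counted regions of other eligible genes within the members' range of spans were close, at 16.9%, 34.6%, 28.5% and 20.1%, against 18.0%, 32.6%, 29.2% and 20.2% in the members. The middle of a member's region lay a median of 15532 bp from the start, and those of neighbouring regions of a gene lay a median of 2943 bp apart. From the first to the last region, the distance was 17473 bp in the median member. This distance was a median of 53.8% of the span, with a range of 14.8% to 90.2%, and it was under 25% in 9 members.

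The counted regions of members had lower fold enrichment than those in the bodies of other genes. Fold enrichment is a ratio to the local background that comes from the peaks that chose the genes, so its values are a description. The median over the 768 regions of members was 3.93 in Mu_E_1 and 4.22 in Mu_E_2, with 4.07 in Mu_E_3 (mean 4.07 ± 0.14, SD, n = 3). The medians over the 1915 gene-body regions of other eligible genes were 4.73, 5.02 and 4.94 (4.90 ± 0.15). Every library had the lower median in the members. At the starts of members the medians over 138 regions were 5.24, 4.99 and 5.18, close to 5.03, 5.28 and 5.45 at the starts of other eligible genes. Widths were alike in the body, with medians of 569 bp in members and 576 bp in other genes.

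**Figure D4:**
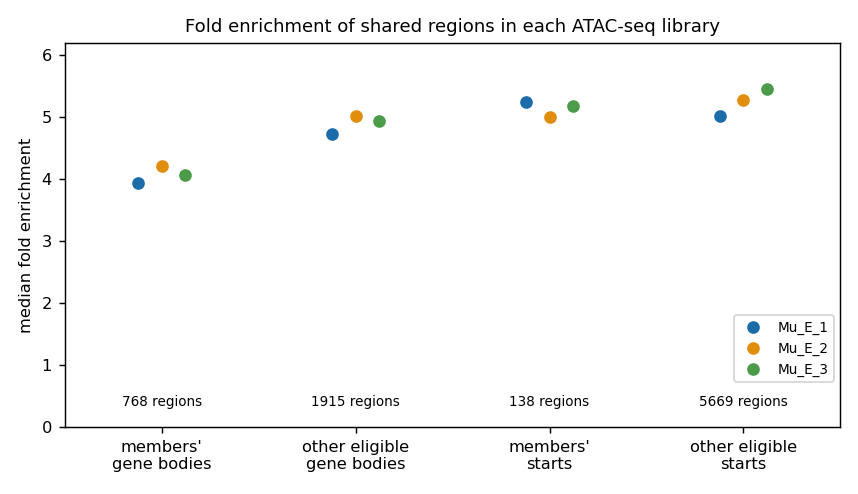
Median fold enrichment over the local background (vertical axis, from 0) of shared regions in each of the 3 ATAC-seq libraries (colours), for regions in the bodies of members and of other eligible genes and for regions within 2 kb of their starts, with the number of regions under each class. The members' gene bodies lie lowest, between 3.93 and 4.22, and the other 3 classes lie between 4.73 and 5.45.

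Genes with many counted regions had lower fold enrichment than genes with 1. In genes with 1 counted region the medians were 4.91, 5.21 and 5.12 in Mu_E_1, Mu_E_2 and Mu_E_3. They were 4.49, 4.85 and 4.70 in genes with 2 regions, 4.55, 4.46 and 4.61 in genes with 3, so that the order of these neighbours differed in Mu_E_1. They were 4.06, 4.31 and 4.25 in genes with 4 or 5 regions and 3.85, 4.17 and 3.99 in genes with 6 or more. Local background was not among the values used here, and its part in this order was not tested. Among members, the 484 regions of genes with at least 10 FPKM in every library had medians of 3.82, 4.202 and 4.03, and the 287 regions of the other members had 4.21, 4.27 and 4.10.

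Single regions departed from these medians. The strongest counted region of any member, CM024098.1:10668346-10669025 in CM024098.1.264, had a fold enrichment of 18.5 in Mu_E_1, 15.4 in Mu_E_2 and 19.4 in Mu_E_3. This gene was at 59.4, 34.4 and 10.86 FPKM. The next, CM024123.1:154009-154889 in CM024123.1.3, was at 13.4, 14.9 and 15.8, in a gene at 0.765, 0.402 and 1.25 FPKM. JACDRO010001523.1:469-1786 in JACDRO010001523.1.1 was at 15.15, 12.96 and 14.98, in a gene with no more than 1 fragment in a library. The 3 regions were strong in every library, and their genes were not among the highly expressed members. Each of these 3 genes also held weaker regions, such as CM024123.1:148561-148862 at 2.82, 3.35 and 2.72.

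All 3 libraries had a part in choosing the members, so the richness in peaks was measured again with sets of genes chosen without 1 library. When 150 genes were chosen in the same way from 2 libraries, the third held a median of 7 gene-body peaks per gene in Mu_E_1, 6 in Mu_E_2 and 6 in Mu_E_3, against a median of 0 in each library for other genes within their span range. In the left-out Mu_E_1, 147 of the 150 genes had 3 or more peaks, against 6.79% of all genes in that span range. With Mu_E_2 left out, 143 of 150 did so, against 5.68%, and with Mu_E_3 left out 149 of 150, against 6.47%. These sets are not the members themselves, with which they share 127, 123 and 134 genes.

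Expression of the members differed between the crabs. For 114 members with at least 10 recovered fragments in each library, the highest FPKM was 1.06 to 35.4 times the lowest, with a median of 3.15. The highest was at least 2 times the lowest in 89 of the 114, or 78.1%, against 60.5% of eligible genes with as many fragments. This comparison holds for the authors' scale only. The ratios of these members ran from 1.04 to 67.0 on own fragments, and the share over eligible genes was not computed there. On the authors' scale Mu_E_3 was the lowest library for 91 of the 114, against 52.5% of such eligible genes. The median ratio of Mu_E_3 to Mu_E_1 was −1.24 on the log2 scale in the members, with 97 of 114 below 0, against 62.3% of such eligible genes, and −0.36 in the 6760 other eligible genes. On own fragments the same medians were 0.09 and 0.96, with 53 of 114 members below 0, against 20.4%, and 42 of the 114 members were lowest in Mu_E_3, against 11.5%. The direction for the members thus turned with the scale. The change of scale shifts all genes of a library alike, so the difference between members and other genes, −0.87 in log2, is the same on both by construction. The median log2 ratio between Mu_E_3 and Mu_E_2 was −1.28 in members and −0.37 in other genes, and on own fragments it was 0.20 and 1.11.

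The ratio was lower still among the highly expressed members. With a mean of at least 100 FPKM, 40 members had a median log2 ratio between Mu_E_3 and Mu_E_1 of −1.61, and for the 636 other eligible genes at that level it was −0.88. For members with a mean of at least 10 FPKM (n = 102) it was −1.26, against −0.48 in 3659 other genes. On own fragments these medians were −0.29 against 0.44 at 100 FPKM, and 0.06 against 0.84 at 10 FPKM. The share of fragments in the 10 highest genes moved the same way between these libraries, at 33.6% in Mu_E_1 and 17.8% in Mu_E_3, and its part in the difference was not tested.

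On the authors' scale, the largest ratios between libraries were found in CM024102.1.121, CM024111.1.456 and CM024115.1.297. CM024102.1.121, on the plus strand of CM024102.1 at 5732002 to 5774210, was at 64.0 FPKM in Mu_E_1 and 155 in Mu_E_2, with 4.36 in Mu_E_3, a ratio of 35.4. CM024111.1.456, on the plus strand of CM024111.1 at 15686937 to 15710139, was at 35.03, 185 and 6.23 FPKM, a ratio of 29.7, which rests on 41, 206 and 20 fragments. Both were highest in Mu_E_2 and lowest in Mu_E_3, also on own fragments, where their ratios were 12.7 and 10.7. CM024115.1.297, on the plus strand of CM024115.1 at 9399741 to 9445717, had the opposite order, with 32.1 FPKM in Mu_E_1, 5.72 in Mu_E_2 and 137 in Mu_E_3. Its fragments numbered 1296, 220 and 15247. Its ratio of 24.0 became 67.0 on own fragments, the largest of the 114 members on that scale. Mu_E_3 was the highest library for 9 of the 114 members on the authors' scale, against 27.8% of such eligible genes, and for 54 of the 114 on own fragments, against 74.9%. Its 9 counted regions included CM024115.1:9417268-9417878, with a fold enrichment of 13.8, 13.3 and 12.7.

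**Figure D5:**
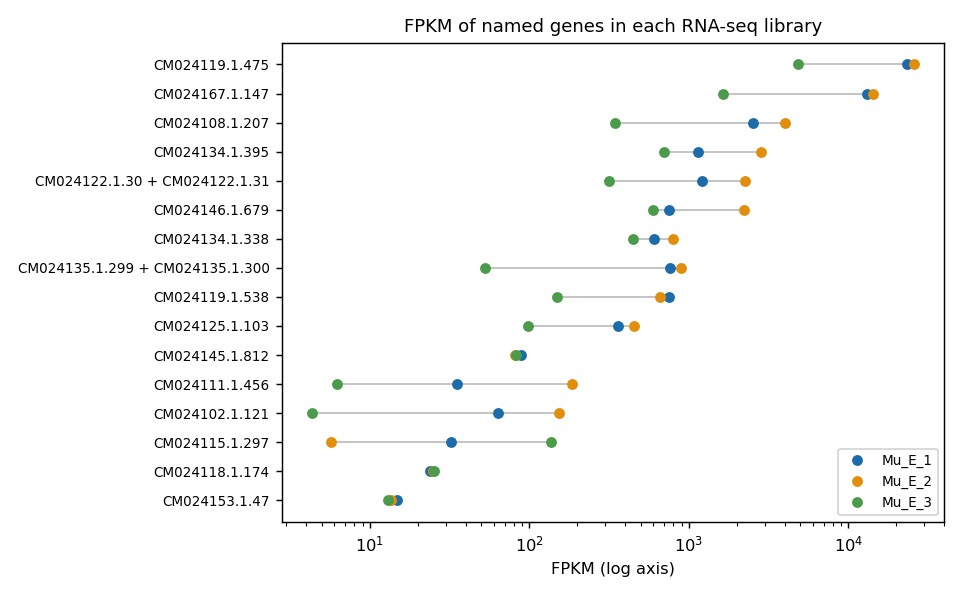
FPKM in each RNA-seq library (colours) of 16 named genes, ordered by their mean, on a log axis. A grey line joins the lowest and the highest library of each gene. Mu_E_3 is the lowest library for most of these genes, while CM024115.1.297 is highest there at 137 FPKM, and the libraries of CM024118.1.174, CM024145.1.812 and CM024153.1.47 nearly coincide.

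The most even members were CM024118.1.174, at 23.8, 25.1 and 25.2 FPKM, CM024145.1.812, at 88.2, 81.8 and 82.8 FPKM, and CM024153.1.47, at 14.9, 13.6 and 13.1 FPKM. This evenness belonged to the authors' scale. On own fragments the level of CM024118.1.174 was 13.6, 12.9 and 36.1, so that Mu_E_3 was highest, and the ratios of the 3 genes were 2.80, 2.82 and 2.68. The first 2 of these genes held 8 counted regions each and the third held 4, as did CM024102.1.121 and CM024111.1.456.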

How the data were processed

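Per the study's methods, the authors aligned ATAC-seq reads with BWA and ran MACS2 on every library separately. The deposited peak lists hold positions, a score, −log10 p-values and q-values, and fold enrichment, which is the ratio of a summit to its local background. Fold enrichment and positions were used, the deposited −log10 q-value only for a stricter threshold, and the score was not used. For RNA-seq, the authors used HISAT2 2.0.5 for alignment and featureCounts 1.5.0-p3 for counting, and the deposited table gives the authors' FPKM. The reference was the *E. sinensis* genome that the study cites by its public sequencing project. An assembly name, the annotation version, use of strand and a transposase shift of the reads are not given in the sources used here. The series' design text and its sample titles name the stage differently, and the period of the titles was used.

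Peaks were merged with at least 1 bp of overlap and coordinates are 1-based. The steps of FPKM times gene length gave back whole fragments, and 100% of values were whole within 0.05 of a fragment. FPKM were compared as log2(FPKM + 1) without a filter on low values. With 1 condition and 3 libraries per assay, values are given as mean ± SD over libraries and no test was run. Joining and counting were tested on simulated data. Python 3.11.15, numpy 2.4.6, pandas 2.3.3, scipy 1.17.1 and matplotlib 3.10.9 were used.

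The members, the lists and the rule for named genes were chosen with earlier results of these data known. Named were the 6 members with the most regions, the 6 with the highest mean FPKM, the 3 with the most regions among those at 0, the 3 largest and 3 smallest ratios between libraries, the 3 densest, the 2 shortest, the 3 with the strongest regions, any named by the study, and 2 genes on each side of the rule's limit. Alternatives covered the peak threshold, the libraries required, the position rules, the span limit, the pseudocount, filters on low FPKM, the scale and leaving out each library. Word lists of gene products could not be counted, because the identifiers carry no names in the tables used here.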

Additional observations from a re-analysis of the deposited data

How the results depend on the processing

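Of 38 alternatives, 32 stayed within the spread between libraries or within 1.5 times the count, 6 moved beyond it and 0 changed sign. Only the expression difference could change sign, since the other results are counts or fold enrichments. Ranking by regions per 10 kb among genes of at least 10 kb kept 94 of the 150 genes. The expression difference of 3.83 became 4.73 with a pseudocount of 0.1, 2.21 with only genes of at least 1 FPKM in every library, and 3.10 for genes chosen by regions per 10 kb. Counted regions at another gene's start fell from 12 to 7 within 1 kb, and the median fold enrichment was 3.84 as a mean over summits. The cause of these changes was not tested, beyond the narrower window and fewer genes themselves. Leaving out a library kept 123 to 134 of the genes, and gave expression differences of 3.65 to 4.15, 118 to 121 members with at least 1 FPKM, 102 to 107 with a start region and fold enrichments of 4.001 to 4.14. The choice by regions per 10 kb for expression, numbered chromosomes alone and leaving out overlapping genes or regions at other starts were chosen after seeing the data. RNA-seq and ATAC-seq libraries that share a number come from the same crab, so the assays are paired by crab. No paired analysis was possible for a test between groups, because the groups that share numbers are different assays and no test compares them. Whether peaks and RNA of a gene varied together between crabs was not tested. Depth limits genes listed at 0 to the level of 3 fragments.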
